A study of Homo sapiens with 6 samples.

Results

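EREG, VEGFA and KITLG, which encode the secreted growth factors epiregulin, vascular endothelial growth factor A and KIT ligand, were chosen by symbol. They are 3 of the 4546 genes in the deposited comparison of mitoxantrone with DMSO. All 6 libraries were made from total RNA of A549, an established human lung adenocarcinoma cell line. In 3 libraries the cells had received DMSO, the solvent, for 48 hours, and in the other 3 they had received mitoxantrone, a drug that traps topoisomerase II on DNA, at 50 nM for 48 hours. Both groups come from this single cell line, and nothing in the labels says whether the replicates were separate cultures.

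The deposited table holds only genes past a threshold on these same libraries: its smallest absolute log2 fold change was 1.00 and its largest adjusted p 0.0497. A gene that is not listed therefore has no known value here. EREG, VEGFA and KITLG were picked with their differences known, so their values are given as a description, without a test. In the authors' deposited table, the log2 fold change of mitoxantrone over DMSO was -3.05 for EREG (adjusted p = 5.4e-56), -1.85 for VEGFA (2.5e-161) and 2.68 for KITLG (4.2e-148).

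Library totals ran from 16681380 to 21781220 reads, and the listed genes held 16.9% to 17.3% of each. In a quasi-likelihood fit in edgeR all 4546 listed genes passed an adjusted p of 0.05, which is 100%, with 58.9% higher and 41.1% lower after mitoxantrone. The 2 groups did not overlap in 98.3% of listed genes. Being called, or not overlapping, thus sets no listed gene apart. The epithelial keratin gene KRT8 stood at a mean of 676 and 1381 FPKM (fragments per kilobase of gene, scaled to sequencing depth) with DMSO and mitoxantrone. Of 22 A549 and lung epithelial markers 8 were listed, with summed normalized counts of 98629 to 113918 per DMSO library and 308290 to 331896 per mitoxantrone library. Of these 8 markers 7 were higher with mitoxantrone, while the mucin gene MUC5AC fell from a mean of 379 to 157 normalized counts. KRT19, ALDH3A1 and KRT5 rose most, by 3.73, 3.27 and 2.91 on the log2 scale, KRT5 from 2 and 14 reads over the groups. CDH1 rose by 1.01. The listed markers of other cell types summed to far less. For 3 of 14 leukocyte and mast cell markers the sums were 41.8 to 56.9 and 252 to 258. These were ITGAX, CD14 and CD8A, higher by 3.02, 2.05 and 1.31 on the log2 scale. For 4 of 8 endothelial markers the sums were 197 to 218 and 51.0 to 54.2. For 2 of 8 fibroblast markers they were 618 to 674 and 306 to 391. The fibroblast sum was mostly COL1A1, which fell from 620 to 267 normalized counts, while THY1 rose from 31.4 to 75.4. The endothelial sum was mostly ESAM, an adhesion molecule gene that fell from 209 to 32.1 normalized counts, while the other 3 listed endothelial markers were higher from few reads, TEK with 0 and 11 over the groups, CDH5 with 1 and 24 and VWF with 3 and 19, whose groups overlapped. Their part in the results was not tested. The measurements are of bulk RNA relative to other transcripts, so fewer cells making a transcript and less of it per cell cannot be told apart.

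Epiregulin belongs to the epidermal growth factor family, whose members are made as membrane-anchored precursors, are shed by metalloproteases and activate receptors of the ErbB family, here EGFR and ERBB4. VEGFA is the main inducer of new blood vessels. It acts on receptor tyrosine kinases of endothelial cells, and its gene is a classical target of the hypoxia-inducible factors. KIT ligand, also called stem cell factor, is made in membrane-bound and soluble forms and sustains mast cells, melanocytes, germ cells and blood progenitors through the receptor KIT.

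Promoters are shown for EREG and KITLG, which moved in opposite directions, and for AREG, the neighbour of EREG that encodes amphiregulin, another ligand of EGFR. Each is the window from 250 bases before to 50 after the annotated start, 5′ to 3′ on the gene's strand, from RefSeq on GRCh38.p14. The positions are chr4:74364895-74365194 for EREG (plus strand), chr4:74444886-74445185 for AREG (plus strand) and chr12:88580422-88580721 for KITLG (minus strand). Capitals mark matches, on either strand, to the motifs TATAAA (the TATA box), CCAAT (the CCAAT box), GGGCGG (the GC box), ACGTG (the core of a hypoxia response element), TGANTCA (an AP-1 site), TGACGT (the core of a cAMP response element) and the p53 half-site.
EREG: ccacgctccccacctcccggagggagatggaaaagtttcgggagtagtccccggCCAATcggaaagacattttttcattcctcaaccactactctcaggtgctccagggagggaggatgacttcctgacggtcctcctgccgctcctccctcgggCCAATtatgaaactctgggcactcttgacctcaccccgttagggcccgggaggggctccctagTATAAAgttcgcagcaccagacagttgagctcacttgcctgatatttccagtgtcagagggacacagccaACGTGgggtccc
AREG: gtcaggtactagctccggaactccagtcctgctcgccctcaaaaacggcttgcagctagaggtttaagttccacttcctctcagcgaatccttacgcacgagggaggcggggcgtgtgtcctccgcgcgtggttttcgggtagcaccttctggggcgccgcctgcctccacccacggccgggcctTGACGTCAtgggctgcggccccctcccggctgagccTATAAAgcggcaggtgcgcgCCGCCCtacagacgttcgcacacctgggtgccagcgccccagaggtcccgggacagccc
KITLG: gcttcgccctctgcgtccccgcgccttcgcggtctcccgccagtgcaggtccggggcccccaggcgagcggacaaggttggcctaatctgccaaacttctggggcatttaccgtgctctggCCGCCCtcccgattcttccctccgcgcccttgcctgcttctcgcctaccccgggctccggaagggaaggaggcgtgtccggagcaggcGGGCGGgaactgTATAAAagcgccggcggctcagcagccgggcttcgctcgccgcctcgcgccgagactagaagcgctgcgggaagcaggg

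All 3 windows held TATAAA, 32 bases before the start in EREG and 29 before it in AREG and KITLG, a motif found in 11.5% of the 35116 promoters of that length. EREG had 2 CCAAT matches, a motif of 34.6% of promoters, and 1 ACGTG match lying after the start, a motif of 21.4%. KITLG had 2 GGGCGG matches and AREG 1, against 45.0% of promoters with any. AREG also held 2 overlapping TGACGT matches, 1 on each strand, where 8.0% of promoters hold the motif. No window matched TGANTCA (7.7% of promoters) or the p53 half-site (6.6%). These matches describe the letters in a short window and are not shown to be sites of binding. The KITLG window was richest in G and C, at 69.7%, against 66.3% for AREG, 57.7% for EREG and a median of 58.7% over all promoters.

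EREG was abundant with DMSO and low after mitoxantrone. Its gene (ENSG00000124882) spans 75230860 to 75254468 on chromosome 4, plus strand; the coordinates are the authors', whose genome build is not stated. The FPKM values were 70.26, 63.35 and 58.59 in DMSO 1 to 3 and 5.26, 7.32 and 8.39 in mitoxantrone 1 to 3. Every mitoxantrone library was below every DMSO library, and mitoxantrone 1 was the lowest of all. In normalized counts (reads divided by the authors' size factors) the mean dropped from 6865 ± 631 to 793 ± 172 (SD, n = 3 libraries per group), an 8.65-fold difference. The fitted log2 fold change was -3.11 ± 0.09 (SE). These values rest on 23367 reads over the DMSO libraries and 2162 over the mitoxantrone libraries.

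VEGFA was lower after mitoxantrone by a smaller factor. The gene (ENSG00000112715; chromosome 6, 43737921 to 43754224, plus strand) had 10.45, 10.36 and 10.61 FPKM in DMSO 1 to 3 and 3.09, 2.57 and 2.55 FPKM in mitoxantrone 1 to 3. The DMSO libraries lay close together, the groups did not overlap, and mitoxantrone 1 was the highest of its group. Mean normalized counts were 2833 ± 17.3 with DMSO and 786 ± 98.8 with mitoxantrone, a 3.60-fold difference, with a log2 fold change of -1.85 ± 0.08 (SE) from 9639 and 2104 reads. GENCODE 29 gives VEGFA 32 transcripts, of which 26 are coding, and its splice forms differ in their binding to heparin and matrix. Counts per gene do not tell these forms apart.

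KITLG went the other way. The gene (ENSG00000049130; chromosome 12, 88886570 to 88974628, minus strand) had 1.55, 1.55 and 1.49 FPKM in DMSO 1 to 3 and 7.85, 9.79 and 10.41 FPKM in mitoxantrone 1 to 3. All mitoxantrone libraries were above all DMSO libraries, and mitoxantrone 1 was the lowest of its group. The mean rose from 173 ± 4.79 to 1120 ± 147 normalized counts, or 6.49-fold, with a log2 fold change of 2.70 ± 0.10 (SE) from 587 and 3038 reads. Of its 7 transcripts in GENCODE 29, 5 are coding. Gene counts do not tell these transcripts, or the membrane-bound and soluble forms of the protein, apart.

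**Figure D1:**
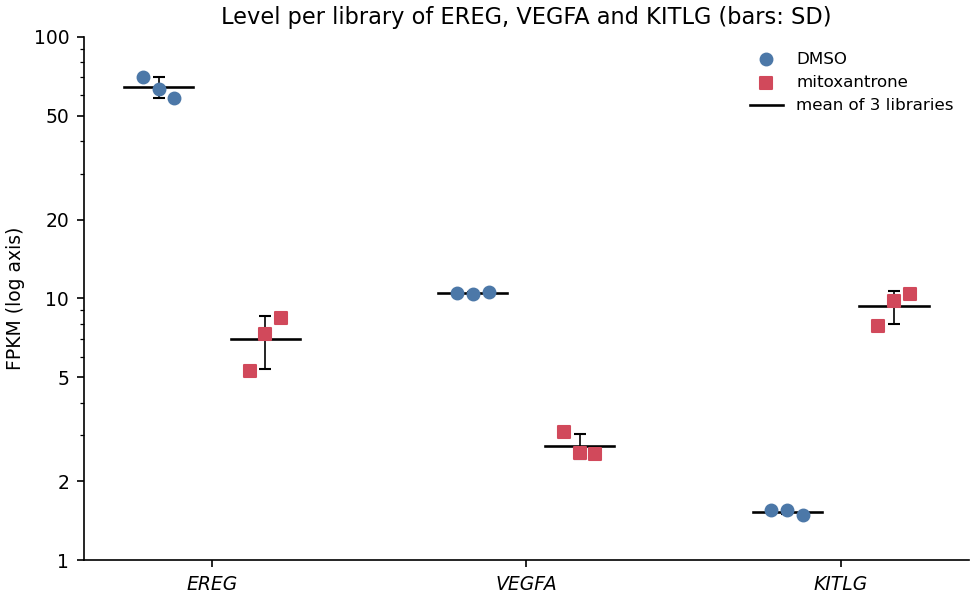
Level of EREG, VEGFA and KITLG in each library, in FPKM on a log axis. Circles are DMSO libraries, squares mitoxantrone libraries, horizontal lines the mean of 3 libraries and vertical bars the SD. EREG drops from 58.59 to 70.26 FPKM down to 5.26 to 8.39, VEGFA drops from about 10.5 FPKM to 2.55 to 3.09, and KITLG rises from about 1.5 FPKM to 7.85 to 10.41.

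Set against each other on the per-length FPKM scale, the order of the 3 transcripts changed with treatment. In each DMSO library EREG was highest and KITLG lowest, with EREG at 39.3 to 45.3 times the FPKM of KITLG and 5.52 to 6.72 times that of VEGFA. In each mitoxantrone library KITLG was highest, EREG next and VEGFA lowest. There the FPKM of KITLG was 1.24 to 1.49 times that of EREG, and the ranges of these neighbours overlapped, 7.85 to 10.41 against 5.26 to 8.39. VEGFA lay below both in every mitoxantrone library, by at least 1.70 times against EREG. The length of 14431 bases that the deposited table gives VEGFA equals the joined exons of all its transcripts in GENCODE 29, as does the 5717 of EREG, while KITLG has 6030 against 6205. A level per length over all exons is lower than one over the exons of a single transcript. Without division by length, mean normalized counts with mitoxantrone were 793 for EREG and 786 for VEGFA. On that scale VEGFA stood above EREG in mitoxantrone 1, at 900 against 607, and below EREG in mitoxantrone 2 and 3.

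The spread between mitoxantrone libraries was wide for all 3 genes. The coefficient of variation of normalized counts was 21.7% for EREG, 13.1% for KITLG and 12.6% for VEGFA, where the median was 5.4% among the 962 listed genes whose mean reached 500 in that group. Of those genes 2 had a larger coefficient than EREG, 40 a larger one than KITLG and 47 a larger one than VEGFA. With DMSO the coefficients were 9.2% for EREG, 0.61% for VEGFA and 2.8% for KITLG, against a median of 5.0% over the 1168 genes whose mean reached 500 with DMSO. KITLG, at a DMSO mean of 173, lies outside that set. Counting error alone would give 3.7% for EREG with mitoxantrone, and with DMSO 1.8% for VEGFA and 7.1% for KITLG, so these last 2 varied less than counting error. For each gene the library labelled mitoxantrone 1 lay farther from both other mitoxantrone libraries than these lay from each other. For EREG it was at 8.85% of the DMSO mean, against 12.0% and 13.8% in the others. For VEGFA it was at 31.8% against 25.8% and 25.6%, and for KITLG at 554% against 676% and 718%. Without it the log2 fold changes were -2.95, -1.96 and 2.80.

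**Figure D2:**
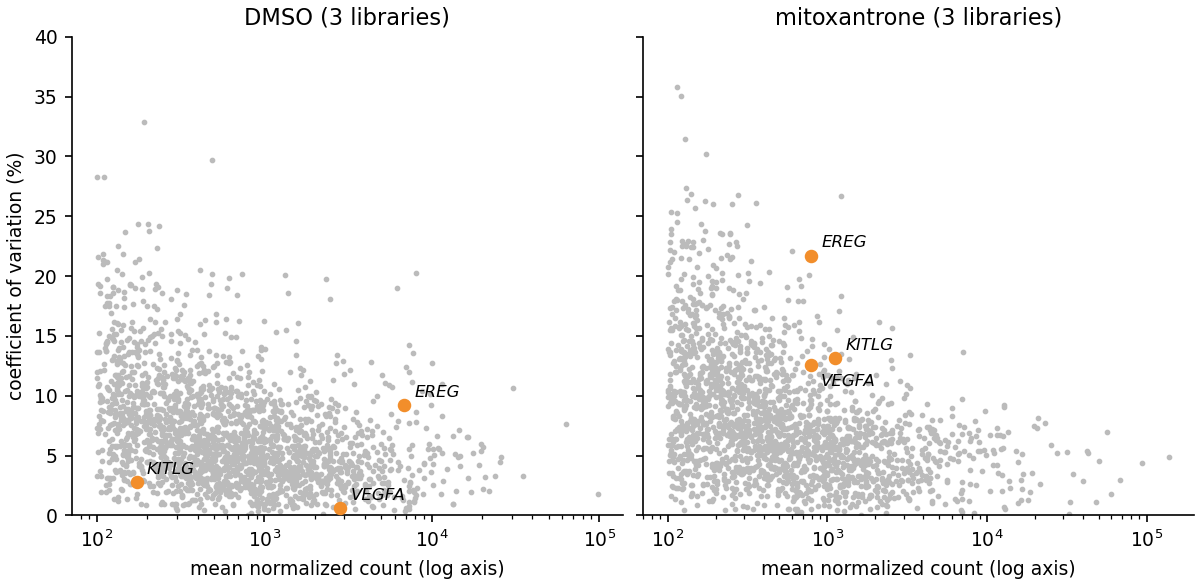
Coefficient of variation over 3 libraries (percent, vertical axis) against mean normalized count (log axis) for listed genes with a mean of at least 100, with DMSO at left and mitoxantrone at right. Orange points are EREG, VEGFA and KITLG. With mitoxantrone EREG lies at 21.7%, near the top of the genes of its level, while with DMSO VEGFA lies at 0.61%, near the bottom.

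Among the ligands of the ErbB receptors, AREG and EREG fell and NRG4 rose. Of 11 ligand genes these 3 were listed, and without EREG, whose fall was known when it was chosen, 1 was lower and 1 higher. AREG was at 22.43, 20.36 and 18.70 FPKM in DMSO 1 to 3 and at 2.87, 2.39 and 2.63 FPKM in mitoxantrone 1 to 3, so its groups did not overlap. Its log2 fold change was -2.87 ± 0.12 (SE), close to that of EREG. NRG4, which encodes a neuregulin that binds ERBB4, rose from a mean of 35.1 normalized counts to 79.2 (log2 fold change 1.18 ± 0.22). The genes EGF, TGFA, HBEGF, BTC, EPGN, NRG1, NRG2 and NRG3 were not listed.

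EREG and AREG kept nearly the same ratio of FPKM in 5 of the 6 libraries. EREG stood at 3.13, 3.11 and 3.13 times the FPKM of AREG in DMSO 1 to 3 and at 3.06 and 3.19 times in mitoxantrone 2 and 3. Only in mitoxantrone 1 was the ratio lower, at 1.83. There EREG was the lowest of all libraries and AREG the highest of its group. This was noticed after the values were seen. AREG had only 79, 69 and 84 reads in mitoxantrone 1 to 3, so counting error limits how closely the ratios there can be compared. AREGB, a copy nearly identical to AREG, was also listed, with 26 reads over the DMSO libraries and 1 over the mitoxantrone libraries, so reads may be divided between the 2 copies and the level of AREG is uncertain.

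Of 20 genes for ErbB receptors, sheddases and receptor regulators 5 were listed, 3 higher and 2 lower, and their median log2 fold change was 1.03. ERRFI1, which encodes the feedback inhibitor MIG6 of EGFR, fell from 4847 ± 66.5 to 1287 ± 134 normalized counts (log2 fold change -1.91 ± 0.07 SE). CBL, a ubiquitin ligase gene acting on activated receptors, fell by 1.11 on the log2 scale. RHBDF2 and RHBDF1, which encode the iRhom partners of the sheddase ADAM17, rose by 1.19 and 1.03, and the adaptor gene GAB1 by 1.07. EGFR, ERBB2, ERBB3, ERBB4, ADAM10 and ADAM17 were absent from the list, which leaves the levels of the receptors unknown.

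Genes of the ERK pathway's feedback and targets, which lie downstream of EGFR and of other receptor kinases, were mostly lower. Of 21 genes 16 were listed, 13 lower and 3 higher. Thus 81.3% of those listed were lower, against 41.1% of all listed genes. Their median log2 fold change was -1.49, against 1.20 over all listed genes. The list was chosen with earlier results of these data known, so these shares are a description and no test of the pathway. EGR1, an immediate early transcription factor gene, was at 490 normalized counts with DMSO and 8.15 with mitoxantrone, a log2 fold change of -5.89 ± 0.24 from 1669 and 22 reads. MYC fell 4.08-fold from 9007 to 2210 counts, and FOS fell by 2.04 on the log2 scale. The rises were the ephrin receptor gene EPHA4 at 2.29, the cyclin D1 gene CCND1 at 1.69 and SPRED3, a Ras pathway inhibitor gene, at 1.15. CCND1 overlaps the listed gene ORAOV1 on the opposite strand, so some reads may belong to either.

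In the VEGF family, 2 of 10 ligands, receptors and co-receptors were listed. PGF, which encodes placental growth factor, a ligand of FLT1, rose while VEGFA fell. Its mean went from 18.2 ± 4.70 normalized counts to 58.0 ± 5.53 (log2 fold change 1.66 ± 0.26), and was at most 0.55 FPKM in any library. VEGFB, VEGFC, FIGF (the VEGFD gene), FLT1, KDR, FLT4, NRP1 and NRP2 were not listed.

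The hypoxia-inducible genes, of which VEGFA is a member, did not move together. Of 36 genes 11 were listed, 6 higher and 5 lower. Without VEGFA, which was chosen with its fall known, 6 of 10 were higher, close to the 58.9% of all listed genes. EGLN3, which encodes a prolyl hydroxylase of hypoxia-inducible factor, rose by 3.18 ± 0.13 (log2, SE), the aldolase gene ALDOC by 2.65 ± 0.23 and the carbonic anhydrase gene CA12 from 4709 to 18467 normalized counts, 3.92-fold. STC2, a secreted glycoprotein hormone gene, fell 13.5-fold from 7827 to 578 counts, and the hexokinase gene HK2 4.47-fold from 62.6 to 14.0. VEGFA, at a log2 fold change of -1.85, was the next lowest of this list. HIF1A, EPAS1, CA9, SLC2A1, LDHA and PGK1 were not listed. EGLN3 overlaps the listed gene SPTSSA on the same strand, so the origin of reads over the overlap is uncertain.

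Around KITLG, 3 of 13 genes for ligands and receptors of the KIT, CSF1 and PDGF group were listed. KITLG and PDGFD rose and PDGFB fell. PDGFB, a ligand of PDGF receptors, was at 11.47, 12.22 and 11.91 FPKM in DMSO 1 to 3 and 2.71, 2.43 and 2.38 FPKM in mitoxantrone 1 to 3 (log2 fold change -2.16 ± 0.10). PDGFD went from 4.76, 4.88 and 5.33 FPKM to 10.15, 10.16 and 10.68 FPKM (1.14 ± 0.09). In both genes the groups did not overlap. The receptor gene KIT was not listed, nor were PDGFRA and PDGFRB.

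**Figure D3:**
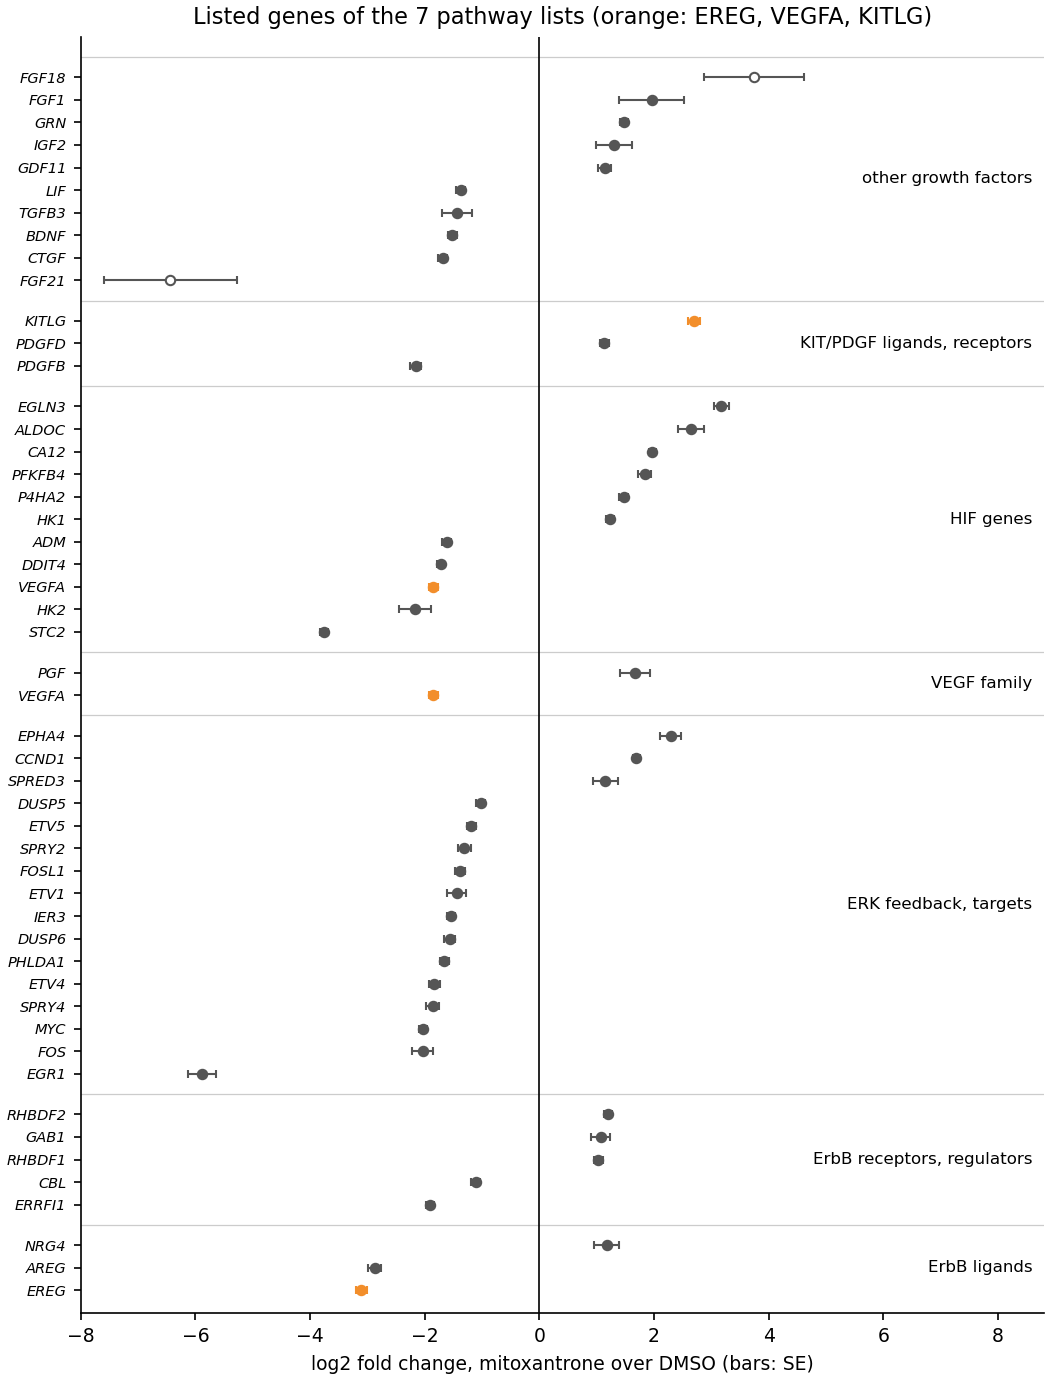
Log2 fold change of mitoxantrone over DMSO (horizontal axis, bars SE) for every listed gene of 7 lists of related genes. The lists were chosen with earlier results of these data known. Orange points are EREG, VEGFA and KITLG, and open circles are genes with 3 or fewer reads over a group. AREG lies beside EREG at -2.87, 13 of 16 ERK feedback and target genes lie below 0, and the hypoxia-inducible genes lie on both sides.

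Of 40 other secreted growth factor genes 10 were listed, 5 higher and 5 lower. GRN, which encodes progranulin, rose 2.78-fold from 2862 to 7951 normalized counts. CTGF, a matricellular growth factor gene, fell 3.23-fold from 3758 to 1165 counts, and BDNF, a neurotrophin gene, 2.87-fold from 2083 to 725. The remaining genes at the ends of this list had few reads. FGF18 had 2 reads over the DMSO libraries and 25 over the mitoxantrone libraries, a ratio of 15.8 (exact 95% interval 3.94 to 138, counting error only), and its fitted log2 fold change of 3.74 became 6.23 without DMSO 1. FGF1 had 11 and 35 reads. FGF21 had 36 and 0 reads, at least 9.50-fold lower against a floor of 3 counts over the group.

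The deposited annotation gives all 3 genes the term growth factor activity, which 39 listed genes carried, themselves included. Of these 20 were higher (51.3%, against 58.9% of all listed genes) and 19 lower. This term was taken up after the values were seen. Among those 39 genes, mean FPKM placed EREG 5th with DMSO and 9th with mitoxantrone, VEGFA 12th and 15th, and KITLG 19th and 8th. With DMSO the leading genes were IL11 at 161 FPKM, JAG1 at 113, CTGF at 85.7 and LIF at 77.5. With mitoxantrone they were DKK1, a Wnt antagonist gene, at 145 FPKM, GRN at 114, JAG1 at 50.4 and CXCL1 at 39.9. KITLG, PDGFD and CXCL1 stood higher with mitoxantrone than with DMSO, and EREG, AREG and IL11 stood lower.

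**Figure D4:**
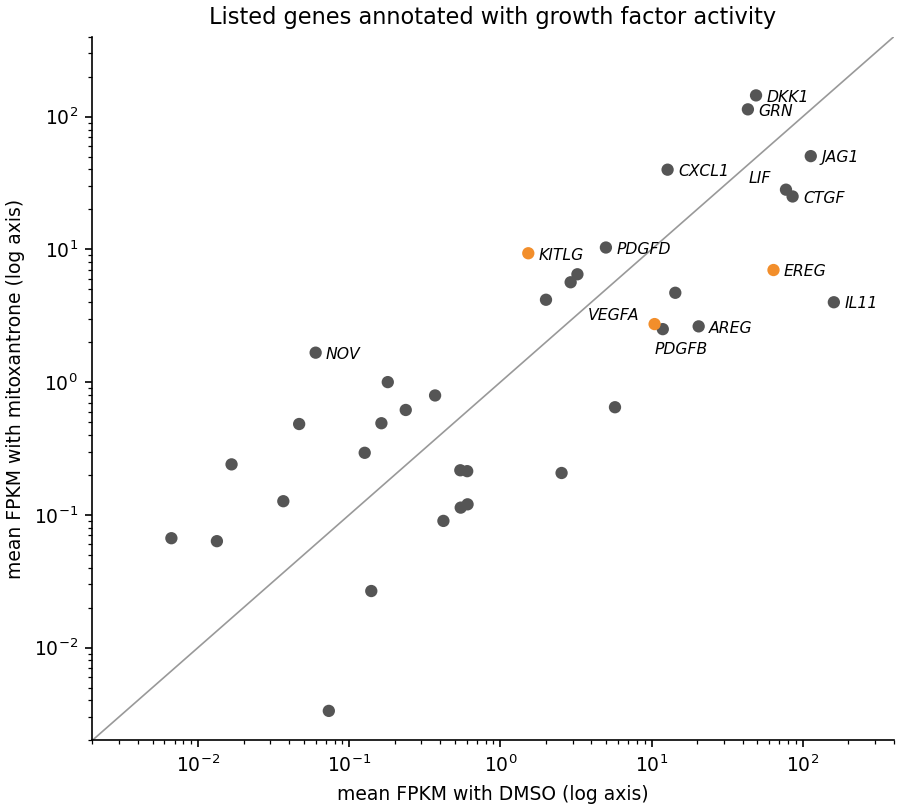
Mean FPKM with mitoxantrone (vertical, log axis) against mean FPKM with DMSO (horizontal, log axis) for listed genes annotated with growth factor activity; the line marks equal levels and orange points are EREG, VEGFA and KITLG. FGF21 and PPBP, at 0 in a group, are left out. KITLG lies above the line at 1.53 and 9.35 FPKM, and EREG below it at 64.1 and 6.99.

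EREG lies in a cluster of ligand genes, several of which were listed. GENCODE 29 has 18 protein-coding genes within 1 Mb of EREG, and 7 of them (38.9%) were listed, where 17.9% of all protein-coding genes were. In the deposited coordinates 9 listed genes lay within 1 Mb, 6 lower and 3 higher. AREG begins 56.4 kb beyond EREG. MTHFD2L, a mitochondrial folate enzyme gene, ends 62.0 kb before it and fell by 1.03 on the log2 scale. Farther along on that side are chemokine genes that attract neutrophils, of which CXCL2 fell by 2.19 and CXCL3 by 1.03, while CXCL1 rose by 1.73. PARM1, a mucin-like gene on the far side of AREG, rose by 1.10 on the log2 scale. PPBP, another chemokine gene, had 0 reads with DMSO and 12 with mitoxantrone, at least 5.05-fold higher against a floor of 3 counts over the group. Its 12 reads were 2, 7 and 3 in mitoxantrone 1 to 3, and without mitoxantrone 2 its fitted log2 fold change moved from 5.22 to 4.59.

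Around VEGFA and KITLG smaller shares of genes were listed. Of 49 protein-coding genes within 1 Mb of VEGFA 6 were listed (12.2%), and with noncoding genes 8, of which 4 were higher and 4 lower. POLH, a translesion DNA polymerase gene, rose by 2.35 and TMEM63B, a membrane channel gene, by 1.92 on the log2 scale. GTPBP2, a GTP-binding protein gene, fell by 1.49 and the Notch ligand homolog gene DLK2 fell by 1.82. NFKBIE, which encodes an inhibitor of NF-kappa-B, fell by 1.14. GNMT, a glycine methyltransferase gene, went from 14 to 46 reads over the groups. POLH and GTPBP2 overlap on opposite strands, and reads from the shared stretch may have been counted for either. Of 8 protein-coding genes around KITLG only DUSP6 was listed (12.5%), an ERK phosphatase gene that lies 766 kb away and fell by 1.57. In GENCODE 29 an antisense gene overlaps VEGFA and another overlaps KITLG. Neither was listed, and since the sources do not say whether counting used strand, their reads may be included.

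**Figure D5:**
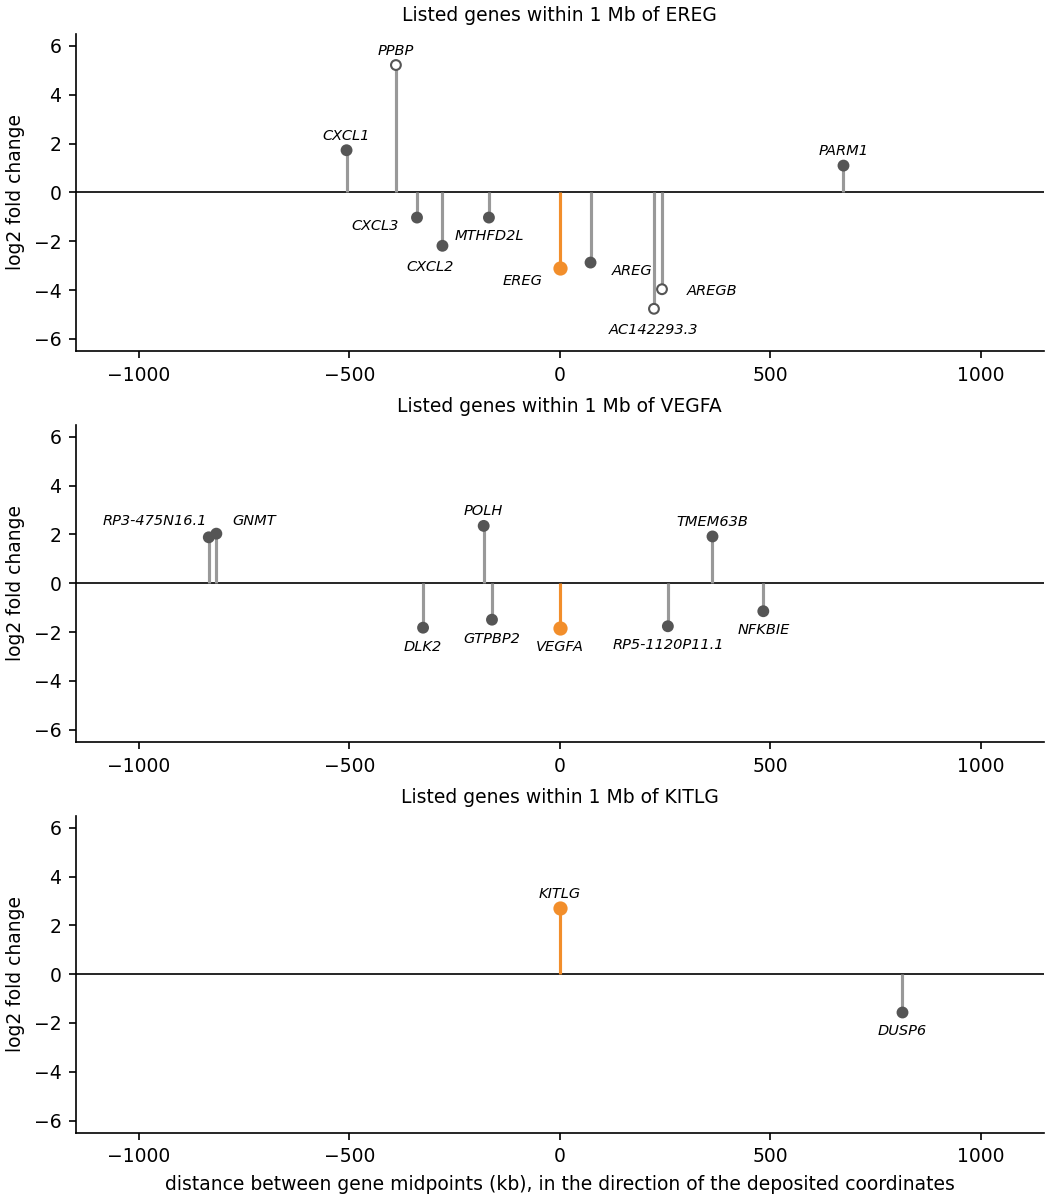
Log2 fold change of mitoxantrone over DMSO (vertical axis) of listed genes within 1 Mb of EREG, VEGFA and KITLG, by distance between gene midpoints in kb (horizontal axis). Orange points are the central genes, and open circles are genes with 3 or fewer reads over a group. Around EREG 6 of 9 genes are lower, around VEGFA 4 of 8, and near KITLG DUSP6 is the single listed gene.

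The genes with the most similar profile were found by the Euclidean distance between centred log2(normalized count + 1) values over the 6 libraries, among 2621 other listed genes with a mean of at least 50. Nearest to EREG were INHBE, an activin subunit gene, at a distance of 0.296, GREM1, a BMP antagonist gene, at 0.305 and FANCD2, a Fanconi anaemia gene, at 0.322. Nearest to VEGFA were the histone variant gene H2AFX at 0.148, the helicase gene RECQL4 at 0.148 and the glycine transporter gene SLC6A9 at 0.155. Nearest to KITLG were GBP3, an interferon-inducible GTPase gene, at 0.238, the sestrin gene SESN1 at 0.267 and B3GALT5, a galactosyltransferase gene, at 0.317. SESN1 had 1.38 to 1.53 FPKM in the DMSO libraries and 8.98 to 9.95 FPKM in the mitoxantrone libraries, levels close to those of KITLG in both groups. The distance between EREG and VEGFA themselves was 1.73, and KITLG lay 7.13 from EREG and 5.58 from VEGFA. With 2 separate groups this measure reflects mainly the size of the difference between them. With FPKM profiles, taken as log2(FPKM + 0.1), none of the 3 genes nearest to EREG stayed among its nearest 3. For KITLG 1 of the 3 stayed.

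All fold changes are relative to the scaling. TMM factors from the listed genes alone moved the median gene by -0.26 on the log2 scale and library totals by -0.08. DESeq2's own factors moved it by -0.84 and gave 1580 higher and 1868 lower calls in place of 2677 and 1869. None of the 97 genes of the lists, neighbourhoods and profiles examined changed sign under any alternative run. All had been selected at an absolute log2 fold change of at least 1.00 on these same libraries. A change of sign was therefore unlikely from the start.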

How the data were processed

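RNA of 6 A549 libraries (3 per group, groups and numbers from the titles) was analysed. Tools per the submitters' processing notes are HISAT2 2.0.1, SAMtools 0.1.19, cutadapt 1.9.1, Cufflinks 2.2.1, HTSeq 0.6.1 and DESeq2. The genome build and the annotation were not given in the sources used here. Per the file headers, the deposited table gives raw read counts and FPKM per library, a mean normalized count (a signal from counts over size factors), and the authors' log2 fold change, its error, their ratio as a score, p-value and adjusted p-value.

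A least-squares solution of the authors' means gave their size factors (largest relative residual 4.8e-10), and library totals from genes of at least 20 FPKM. edgeR 4.0.16 (R 4.3.3) fitted raw counts of all 4546 genes with these factors by quasi-likelihood, without covariates or filter, Benjamini-Hochberg adjusted at 0.05. SE is the absolute log2 fold change over the root of F. The code of the fit was tried on simulated counts in which most genes were unchanged. The listed genes were all selected for change, so that trial does not bear on these results. DESeq2 1.42.0 and limma 3.58.1 served as alternatives. Errors and p-values rest on the spread among libraries that may be technical replicates.

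The genes, lists and rules were chosen with earlier results of these data known. Named were EREG, VEGFA and KITLG, all listed members of lists with up to 6, otherwise the 3 highest and 3 lowest, the 3 most similar genes, and protein-coding genes listed within 1 Mb. Of the 4546 identifiers 4371 matched the name table. Sequences matched by symbol for EREG, AREG and KITLG.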

Additional observations from a re-analysis of the deposited data

How the results depend on the processing

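Of 435 values under alternatives 415 kept their direction and stayed within the replicate spread, or within 1.5 times for counts, 20 moved and 0 reversed. The selection of the listed genes for their change made a reversal unlikely from the start. Leaving out each library in turn gave log2 fold changes of -3.26 to -2.95 for EREG, -1.96 to -1.80 for VEGFA and 2.62 to 2.80 for KITLG, and 2631 to 2668 higher and 1855 to 1866 lower calls. DESeq2 with its own size factors, which centre on genes selected for change, gave 1580 higher calls and log2 fold changes of -3.95, -2.69 and 1.86 for EREG, VEGFA and KITLG. With the authors' size factors, an alternative added after seeing the data, it gave 2655 higher and 1868 lower calls. TMM gave -2.11 for VEGFA and 2.44 for KITLG, and limma on log2(FPKM + 1) gave -1.62 and 2.02. Against a 2-fold change (glmTreat) higher members numbered 0 of the ErbB ligands, 1 of the ErbB receptors and regulators and 0 of the fibroblast markers, and the same 0, 1 and 0 with DESeq2's own factors, which also left 2 higher other growth factors. Requiring 10 counts in 3 or more samples, 3 other growth factors and 0 endothelial markers were higher, because genes with few reads left the test. FPKM profiles shared 0 of the 3 genes most like EREG and 1 of those most like KITLG, and a window of 500 kb held 0 listed genes near KITLG. The cause was not tested for the profiles. Libraries with the same number showed no shared deviation (correlations of -0.07, -0.08 and 0.03 over 2622 genes). With the replicate number as a block, the log2 fold changes were -3.12, -1.86 and 2.69 with 2677 higher and 1869 lower calls, and it changed no call. Since the list was itself selected on the same 6 libraries, small movements do not bear on its edge. Few reads limit FGF18, PPBP and AREGB, whose fitted log2 fold change moved from -3.97 to -6.03 without mitoxantrone 1.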

Other observations

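Besides growth factor activity, the deposited annotation gave the genes other shared terms, whose counts below include the genes themselves and stand against 58.9% higher over all listed genes. EREG and VEGFA shared the term angiogenesis, and of the 46 listed genes with it 32 were higher and 14 lower. EREG and KITLG, which moved in opposite directions, shared the term for epidermal growth factor receptor signaling, whose 23 listed genes split into 12 higher and 11 lower. VEGFA and KITLG shared cytokine activity, with 15 higher and 12 lower of 27. The term extracellular region, carried by all 3 genes, had 263 higher and 56 lower of 319 listed genes. The terms were looked at after the values were seen, and no test was made of them.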
